A study of Mus musculus with 59 samples.

Results

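Arc, Homer1 and Nptx2 are 3 genes whose transcripts are raised by synaptic activity in forebrain neurons and whose products act at excitatory synapses. They were taken by name, with earlier results of these data known, as 3 of the 4484 genes in the deposited table. All 3 were followed across all 59 libraries. The libraries were made from total RNA of homogenised medial prefrontal cortex. The mice were adult and wild type, of the C57BL/6J strain, and males and females were killed every 4 h over 24 h, at zeitgeber times (ZT, hours from lights on) ZT2, ZT6, ZT10, ZT14, ZT18 and ZT22, which gave 12 groups of 5 libraries, with 4 in the ZT10 females. The labels give no treatment, no age beyond adult and no light schedule, and ZT12 to ZT24 is called dark here by convention. The sample names carry an animal number, and 44 libraries share theirs with another library of the same group, in all 12 groups. The labels do not say whether these are separate mice, and each p-value therefore reflects spread among libraries, which may in part be technical.

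Arc encodes a protein that promotes the removal of AMPA-type glutamate receptors from the postsynaptic membrane, and its mRNA is made within minutes of strong synaptic input. Homer1 encodes scaffold proteins that link metabotropic glutamate receptors to calcium stores. Its short activity-induced form, Homer1a, lacks the part that joins Homer proteins to one another and so loosens the scaffold. Nptx2, also called Narp, encodes a secreted pentraxin that clusters AMPA receptors, above all at excitatory inputs onto parvalbumin interneurons. Activity reaches such genes through CREB, SRF and MEF2, which are transcription factors that calcium entry switches on.

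In the GENCODE M21 annotation of GRCm38, Arc (ENSMUSG00000022602) lies on chromosome 15 at 74669083 to 74672570, on the minus strand, with 3057 exonic bases. Homer1 (ENSMUSG00000007617) lies on chromosome 13 at 93299635 to 93405129, on the plus strand, and its 12 annotated transcripts of 625 to 5713 bases cover 11976 exonic bases together. Nptx2 (ENSMUSG00000059991) lies on chromosome 5 at 144545902 to 144557478, on the plus strand, with 1 transcript of 2536 bases. No annotated exon of another gene overlaps the exons of the 3 genes. The table has 1 value per gene, so the short activity-induced form of Homer1 and its long scaffold forms are summed and cannot be told apart.

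The 300 bases around a RefSeq start of Homer1, from 250 before it to 50 after, are shown, of 2 windows that the table gives for this gene, because they hold several copies of the half-site of the cyclic AMP response element, the short sequence that CREB binds (chr13:93303507-93303806, plus strand, GRCm38.p6, RefSeq).
Homer1 promoter, window 1: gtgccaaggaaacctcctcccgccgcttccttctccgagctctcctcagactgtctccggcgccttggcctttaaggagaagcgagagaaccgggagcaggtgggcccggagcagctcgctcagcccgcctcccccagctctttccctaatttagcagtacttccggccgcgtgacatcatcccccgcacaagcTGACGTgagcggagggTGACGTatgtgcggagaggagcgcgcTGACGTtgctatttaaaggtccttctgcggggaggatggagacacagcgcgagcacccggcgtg
The capitals mark TGACGT, searched on both strands. It occurs 3 times, all on the plus strand, at bases -56 to -51, -40 to -35 and -14 to -9 from the start, where -1 is the base before it. Of 32817 promoter windows of the same length, 7.5% held at least 1 such half-site and 0.2% (66 windows) held 3 or more. The window was 63.0% G and C. The table has a second window for Homer1, at 93307784 to 93308083 of the same chromosome and strand, with 44.7% G and C, which held neither this half-site nor any of the next 5 motifs. The full element TGACGTCA (in 1.8% of windows), the E-box CACGTG (7.1%), the AP-1 site TGANTCA (7.8%), the serum response element (1.6%) and the MEF2 site (3.2%) did not occur in these letters. Of the 3 genes, 1 matched the promoter table, and a match describes the sequence only.

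The table held 6317420 to 13325019 reads per library, with 1009789 to 4253935 outside the 6 most abundant noncoding genes. Arc was covered by 148 to 2047 reads per library (median 443), Homer1 by 1420 to 5765 (median 2824) and Nptx2 by 82 to 467 (median 209). Serial numbers in the sample names run from 1 to 60 in 5 runs, and each run passes through the 6 times and both sexes. The 11 libraries of the last run, serial numbers 49 to 60, differed in mean from the other runs on the leading principal component (24.5% of the variance). Their mean was 0.319 ± 0.101 (SD), against -0.114 to 0.0219 in the other runs. Single libraries of other runs lay in the same range, such as ZT18 female 4 (0.392). Within their own groups the libraries 49 to 60 were lower than the mean of the others for Homer1 in 10 of 11 groups (mean difference -0.28 ± 0.31 log2, SD) and higher for Nptx2 in 10 of 11 (0.38 ± 0.46), against 8 lower and 3 higher for Arc (-0.11 ± 0.35). Where a call below changes without them, both values are given.

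Compared per length, Homer1 and Arc were among the more abundant of the tested protein-coding genes and Nptx2 was lower. The deposited table holds 4484 genes and lacks many others, with 1 of 7 listed oligodendrocyte markers in it. A rank in it is therefore not a rank among all mRNAs of the tissue. Homer1 averaged 122.8 ± 24.1 reads per kilobase of exon per 1000000 reads (RPKM; SD, n = 59; reads outside the 6 noncoding genes), above 90.8% of 3934 protein-coding genes. Arc averaged 93.3 ± 49.4 and lay above 86.8% of them. Nptx2 averaged 39.9 ± 13.8 and lay above 69.3%. The Homer1 value depends on the length used: with its longest transcript in place of all exonic bases it was 257.5 ± 50.5. In RPKM the mean of Arc went from 42.2 at ZT6 to 158.2 at ZT18, so that Arc was below Nptx2 (50.4) at ZT6 and above Homer1 (136.2) at ZT18. The order of Arc and Homer1 depends on the length: with the longest transcripts Homer1 was at 285.6 and Arc at 158.3 at ZT18. Of the markers of the labelled tissue, the glutamatergic transporter gene Slc17a7 had mean log2 levels of 14.78 to 14.89 at the 6 times.

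**Figure D1:**
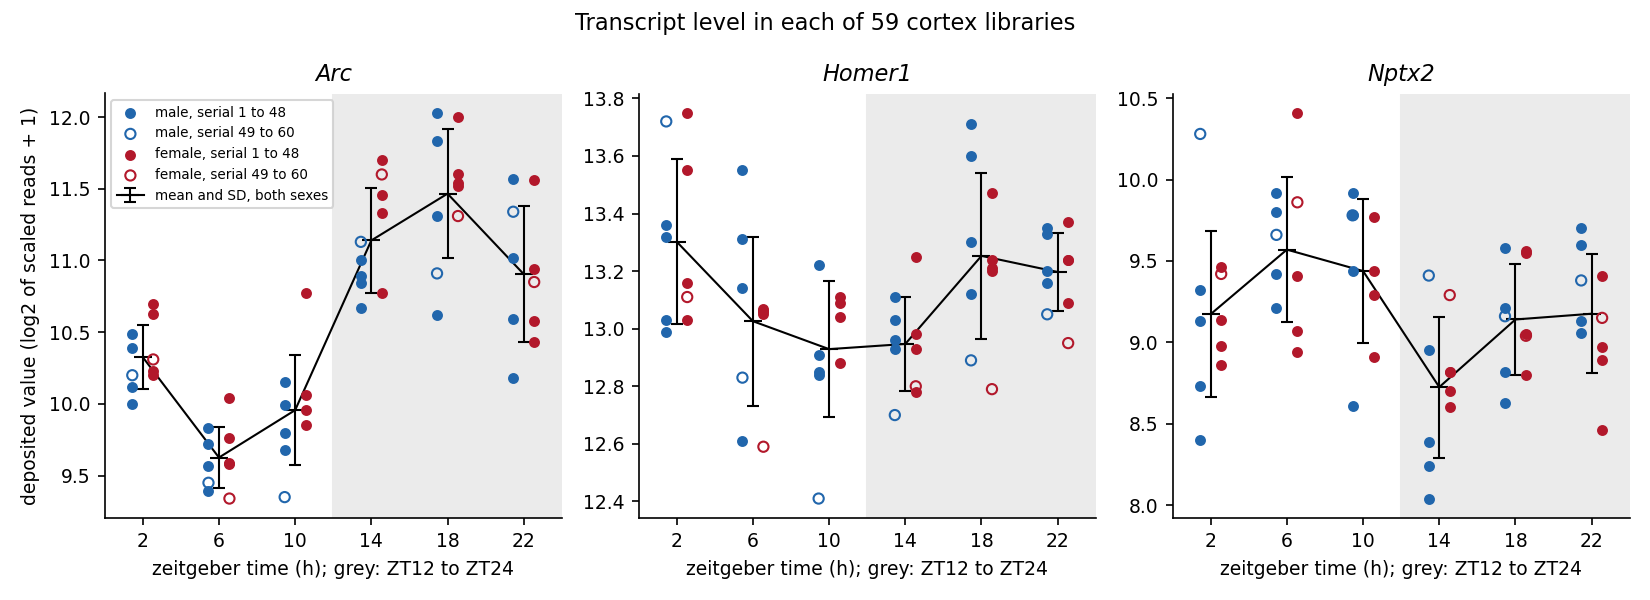
Level of Arc, Homer1 and Nptx2 (y axis, deposited value, log2 of scaled reads plus 1) against zeitgeber time (x axis, hours) in each of the 59 libraries. Blue points are males, red points females, open circles the libraries with serial numbers 49 to 60, and black bars the mean and SD of both sexes. Arc lies between 9.34 and 10.04 at ZT6 and between 10.62 and 12.03 at ZT18, while the times overlap for Homer1 and Nptx2.

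Arc was low in the light, lowest at ZT6, and high in the dark, highest at ZT18. Its values (log2 of scaled reads plus 1; lowest, median and highest library) were 9.999, 10.27 and 10.70 at ZT2, and 9.34, 9.58 and 10.04 at ZT6. At ZT10 they were 9.35, 9.96 and 10.77, and at ZT14 they were 10.67, 11.07 and 11.70. At ZT18 they were 10.62, 11.53 and 12.03, and at ZT22 they were 10.18, 10.90 and 11.57. Every library of ZT14, ZT18 and ZT22 was above every library of ZT6. Separation of ranges, here and below, was not counted over all tested genes, so how unusual it is was not tested. Between ZT10 and ZT14 the ranges met only through 1 high ZT10 female (10.77) and 1 low ZT14 male (10.67).

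The means of Arc were 10.33 ± 0.23 at ZT2, 9.63 ± 0.22 at ZT6, 9.96 ± 0.39 at ZT10, 11.14 ± 0.36 at ZT14, 11.47 ± 0.45 at ZT18 and 10.90 ± 0.48 at ZT22 (SD, n = 10, n = 9 at ZT10). Each of the 15 pairs of times was tested with limma on all 4273 genes that passed a filter on low reads (at least 10 reads in at least 4 libraries), with Benjamini-Hochberg adjustment within each pair and a threshold of 0.05. The pairs share libraries and are not independent. Over all genes and pairs 0.229% of tests were called, and 4194 genes had no called pair. Arc had 9 called pairs, the most of any gene, and the gene next to it had 7. All 6 differences of ZT14 and ZT18 from ZT2, ZT6 and ZT10 were called, as were ZT22 against ZT6, ZT22 against ZT10, and ZT6 against ZT2.

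In the morning Arc fell by 0.70 ± 0.15 from ZT2 to ZT6 (SE, adjusted p = 0.0282 by limma), and 9 of 10 ZT2 libraries were above all ZT6 libraries, in a pair where 0.140% of genes were called. This call was the least stable of the 9. It was lost without the libraries 49 to 60 (-0.66, adjusted p = 0.181 by limma), with 2 principal components as covariates (-0.66, adjusted p = 0.0552) and on the scale of all reads in the table (-0.54, adjusted p = 0.936). It was also lost when any 1 of 9 libraries was left out: ZT2 male 3 or 4, ZT2 female 2 or 4, ZT6 male 3 or 5, or ZT6 female 1, 4 or 5 (-0.71 to -0.66, adjusted p up to 0.0851). On the scale of all reads the calls of ZT14 against ZT2 (0.76, adjusted p = 0.664 by limma) and ZT22 against ZT10 (0.99, adjusted p = 0.301) were lost too, which left 6 pairs. From ZT10 to ZT14, across the start of the dark, it rose by 1.17 ± 0.16, a fold of 2.25 (adjusted p = 2.28e-06 by limma), where 0.0702% of genes were called. From ZT6 to ZT18 the difference was 1.84 ± 0.15, a fold of 3.58 (adjusted p = 9.7e-14 by limma), where 0.749% were called. From lowest to highest the order was ZT6, ZT10, ZT2, ZT22, ZT14, ZT18. None of the 5 neighbours in this order differed at an adjusted p under 0.05 by limma, and 4 of 5 did at an unadjusted p. The drop from ZT18 to ZT22 was -0.56 ± 0.15 (95% interval -0.86 to -0.26; adjusted p = 0.797 by limma, unadjusted p = 0.00054).

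A 24 h cosine fitted with limma to all 59 libraries described this course with an amplitude (mean to peak, log2) of 0.90 ± 0.07 and a peak at ZT18.13 ± 0.28 h (SE), and 1.90% of genes were called by this test. Arc had the smallest p of all genes in the fit to both sexes and also in each sex alone. A component of 12 h added to the model was 0.17 ± 0.06 for Arc (adjusted p = 0.624 by limma). No gene was called for a 12 h component (0.00%), and 291 had an unadjusted p under 0.05. As mean dark minus mean light, Arc differed by 1.19 ± 0.09 log2 (adjusted p = 8.8e-15 by limma), where 0.702% of genes were called.

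Homer1 varied little over the day and its levels overlapped at every pair of times. Lowest, median and highest values were 12.99, 13.24 and 13.75 at ZT2, and 12.59, 13.06 and 13.55 at ZT6. They were 12.41, 12.92 and 13.22 at ZT10, and 12.70, 12.95 and 13.25 at ZT14. They were 12.79, 13.23 and 13.71 at ZT18, and 12.95, 13.22 and 13.37 at ZT22. The higher values thus fell at ZT18, ZT22 and ZT2, and the lower ones at ZT10 and ZT14. The means were 13.30 ± 0.29 at ZT2, 13.03 ± 0.29 at ZT6, 12.93 ± 0.24 at ZT10, 12.95 ± 0.16 at ZT14, 13.25 ± 0.29 at ZT18 and 13.20 ± 0.14 at ZT22 (SD, n = 10, n = 9 at ZT10).

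The 24 h cosine for Homer1 had amplitude 0.19 ± 0.05 and its peak at ZT22.74 ± 0.90 h, a trough-to-peak fold of 1.30 (adjusted p = 0.0300 by limma, the p of rank 70 among 4273). The call was not kept without the libraries 49 to 60 (amplitude 0.17, adjusted p = 0.0647 by limma), nor without the ZT10 male of that run alone (0.17, adjusted p = 0.0665), whose value of 12.41 was the lowest of all. It was not kept either on the scale of all reads in the table (0.22, adjusted p = 0.9997). None of the 15 pairs of times was called by limma for Homer1, and 8 had an unadjusted p under 0.05. The largest, ZT10 against ZT2, was -0.37 ± 0.11 (adjusted p = 0.298 by limma), and 5 of 10 ZT2 libraries were above all ZT10 libraries. Neighbours in the order ZT10, ZT14, ZT6, ZT22, ZT18, ZT2 differed by 0.02 to 0.17. The joint test of any difference among the 6 times called 1.05% of genes, among them Arc (adjusted p = 1.26e-14 by limma). Homer1 was not called in it (adjusted p = 0.107), and neither was Nptx2 (0.0697). With the serial-number run as a block both were (adjusted p = 0.0156 and 0.0174 by limma), and Nptx2 was also called without the libraries 49 to 60 (adjusted p = 0.048).

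The mean level of Nptx2 was highest at ZT6, where that of Arc was lowest, and lowest at ZT14. Lowest, median and highest values were 8.40, 9.14 and 10.28 at ZT2, and 8.94, 9.54 and 10.41 at ZT6. They were 8.61, 9.44 and 9.92 at ZT10, and 8.04, 8.76 and 9.41 at ZT14. They were 8.63, 9.11 and 9.58 at ZT18, and 8.46, 9.14 and 9.70 at ZT22. The ranges overlapped at every pair of times, and the spread within a time was the widest of the 3 genes at ZT2, ZT6, ZT10 and ZT14. The means were 9.17 ± 0.51 at ZT2, 9.57 ± 0.45 at ZT6, 9.44 ± 0.44 at ZT10, 8.72 ± 0.43 at ZT14, 9.14 ± 0.34 at ZT18 and 9.18 ± 0.37 at ZT22 (SD, n = 10, n = 9 at ZT10).

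The contrast of ZT14 with ZT6 was the called pair of Nptx2. At ZT6 the males were 9.21, 9.92, 9.80, 9.42 and 9.66, and the females 9.41, 8.94, 10.41, 9.07 and 9.86. At ZT14 the males were 8.95, 8.39, 8.04, 8.24 and 9.41, and the females 8.60, 8.82, 8.70, 8.82 and 9.29. Of 10 ZT6 libraries 7 were above every ZT14 library, and the 2 highest ZT14 values belonged to the libraries 49 to 60. The difference was -0.84 ± 0.19, a fold of 0.557 (adjusted p = 0.0136 by limma), in a pair where 0.421% of genes were called. The same contrast for Arc was 1.51 ± 0.15 (adjusted p = 2.06e-10 by limma). ZT14 against ZT10 was -0.71 ± 0.19 for Nptx2 (adjusted p = 0.280 by limma), and 6 of 9 ZT10 libraries were above all ZT14 libraries. ZT14 minus ZT6 was -0.95 for Nptx2 without the libraries 49 to 60 (adjusted p = 0.00877 by limma). On the scale of all reads in the table it was -0.98 and was not called (adjusted p = 0.454).

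Neighbours in the order of Nptx2, from lowest ZT14 through ZT18, ZT2, ZT22 and ZT10 to ZT6, differed by 0.00 to 0.42, and none was called by limma (1 of 5 at an unadjusted p under 0.05, ZT18 against ZT14). Mean dark minus mean light was -0.38 ± 0.11 (95% interval -0.59 to -0.16; adjusted p = 0.10 by limma; 0.0359 with the serial-number run as a block). The same contrast for Homer1 was 0.04 ± 0.07 (-0.08 to 0.17; adjusted p = 0.946). The 12 h component of Nptx2, 0.26 ± 0.08, was about as large as its 24 h amplitude of 0.27 ± 0.08, and neither was called (adjusted p = 0.624 and 0.168 by limma).

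**Figure D2:**
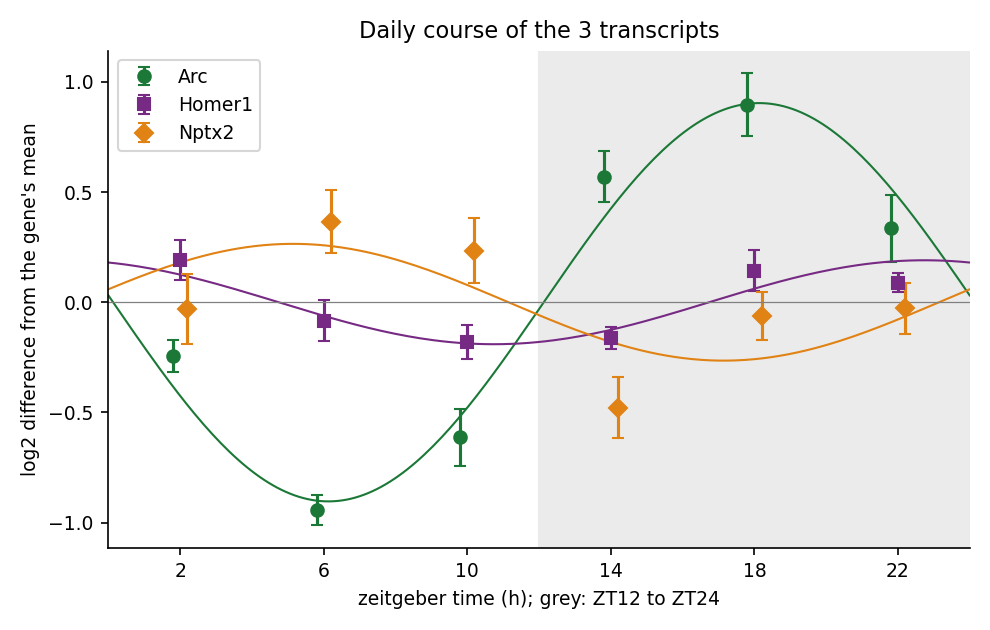
Mean of each gene at each time relative to its own mean (y axis, log2; bars are the SE over 10 libraries, 9 at ZT10) against zeitgeber time (x axis, hours), with the fitted 24 h curves as lines. Arc peaks in the dark, the Homer1 curve is shallow with its peak near ZT22.74, and Nptx2 dips at ZT14 further below its curve than any other of its means departs.

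**Figure D3:**
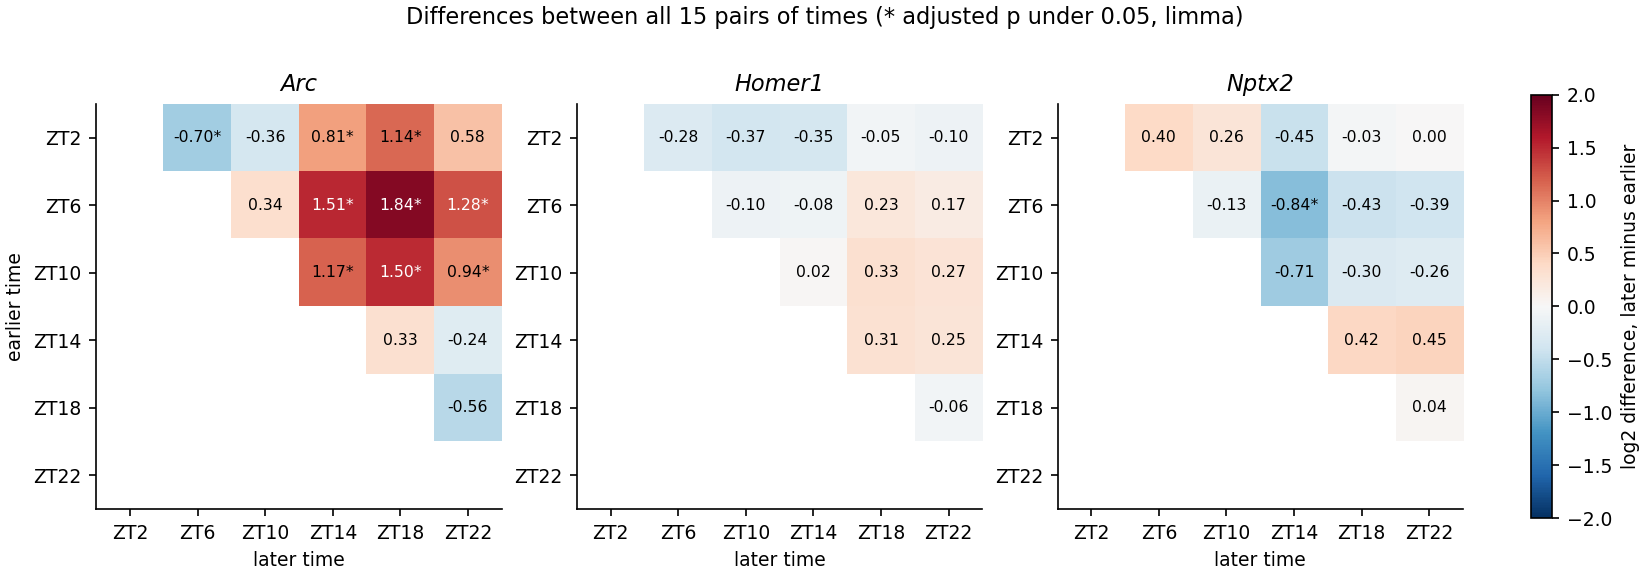
Log2 difference, later minus earlier time, for all 15 pairs of times in each gene (rows: earlier time; columns: later time; colour and printed value: difference), with an asterisk where limma's adjusted p was under 0.05. Arc has 9 marked pairs, Homer1 none and Nptx2 the single pair ZT14 and ZT6.

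The balance of the 3 transcripts within a library changed over the day, tested as ratios after the values were seen and without ratios of other genes beside them. The log2 ratio of Arc to Nptx2 was 0.06 ± 0.55 at ZT6 and 2.42 ± 0.44 at ZT14 (SD, n = 10 each), and it followed a 24 h cosine of amplitude 1.16 ± 0.11 with a peak at ZT17.91, a fold of 5.01 from trough to peak. The ratio of Arc to Homer1 was -3.40 ± 0.29 at ZT6 and -1.79 ± 0.42 at ZT18, its amplitude was 0.85 ± 0.07 and it peaked at ZT17.33. The permutation p of both, with times permuted 100000 times within each sex, was 1e-05, the smallest these permutations can give (1.5e-05 after Benjamini-Hochberg adjustment over the 3 ratios). Both restate the rhythm of Arc, which is large beside the courses of Homer1 and Nptx2, and are not separate results. The ratio of Homer1 to Nptx2 was 3.46 ± 0.56 at ZT6 and 4.22 ± 0.54 at ZT14, with amplitude 0.34 ± 0.10 and peak ZT19.39 (permutation p = 0.00504, also after adjustment). Apart from the added 1, a ratio within a library does not depend on how that library was scaled. Each ratio kept its call in the libraries 1 to 48 alone, with amplitudes of 0.81, 1.12 and 0.33 for Arc to Homer1, Arc to Nptx2 and Homer1 to Nptx2.

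In both sexes each of the 3 dark means of Arc was above each of its 3 light means. In males the Arc means were 10.24 ± 0.20, 9.59 ± 0.18, 9.79 ± 0.31, 10.91 ± 0.17, 11.34 ± 0.59 and 10.94 ± 0.56 from ZT2 to ZT22 (SD, n = 5 each). In females they were 10.41 ± 0.23, 9.66 ± 0.26, 10.16 ± 0.41, 11.37 ± 0.36, 11.59 ± 0.25 and 10.87 ± 0.44 (n = 5, n = 4 at ZT10). Females were thus at or above males in mean except at ZT22, and 4 of 5 ZT14 females were above all 5 ZT14 males. Over all times Arc was -0.21 ± 0.09 in males relative to females (95% interval -0.38 to -0.03; unadjusted p = 0.0236, adjusted p = 0.999 by limma), where 0.0234% of genes, a single one, were called.

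The fitted Arc peak was at ZT18.59 ± 0.38 h in males and ZT17.67 ± 0.37 h in females. The difference in rhythm between the sexes was not called (adjusted p = 0.741 by limma), nor was it for any gene (0.00%, with 180 genes at an unadjusted p under 0.05). Within one sex the test called 0.164% of genes in males and 0.328% in females, Arc in both. Homer1 had a shallow curve in each, of amplitude 0.22 ± 0.07 peaking at ZT22.5 in males, and 0.16 ± 0.06 and ZT23.1 in females (adjusted p = 0.424 and 0.541 by limma). For Nptx2 the amplitude was 0.32 ± 0.13 with a peak at ZT4.43 in males and 0.23 ± 0.10 at ZT6.20 in females (adjusted p = 0.675 and 0.618 by limma). The male minus female difference was 0.02 (95% interval -0.11 to 0.14) for Homer1 and 0.04 (-0.17 to 0.25) for Nptx2, both with an adjusted p of 0.999 by limma.

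Libraries of one time and sex that were high for Arc tended weakly to be high for Homer1, though not in every setting at an adjusted p under 0.05. After terms for group and serial-number run, the residuals of Arc and Homer1 over 59 libraries had Pearson's r = 0.318 (permutation p = 0.0135, adjusted over 3 pairs 0.0405) and Spearman's rho = 0.402 (permutation p = 0.00166, adjusted 0.00498). Without the 2 libraries farthest from the median of Arc, r was 0.28 (adjusted permutation p = 0.102). With deviations from the group means alone r was 0.332 (adjusted permutation p = 0.0319), and 0.344 without the 2 farthest (adjusted permutation p = 0.0272). In the 48 libraries 1 to 48 these residuals had r = 0.295 (adjusted permutation p = 0.122), and in the 11 libraries 49 to 60 r was 0.431 (adjusted permutation p = 0.291). A fit to the libraries 1 to 48 alone gave r = 0.288 and rho = 0.241 (adjusted permutation p = 0.142 and 0.296). All these permutations treat residuals as exchangeable although group means or terms for group and run had been fitted, so their p-values may be too small. Arc and Nptx2 had r = 0.108 and rho = 0.0945 (adjusted permutation p = 0.415 and 0.475). Homer1 and Nptx2 had r = 0.165 and rho = 0.163 (adjusted permutation p = 0.315 and 0.325). Their r was 0.729 in the 11 libraries 49 to 60 (permutation p = 0.0227, adjusted 0.0682) and -0.00418 in the 48 others. Without the ZT2 male of the last run, which had the highest Homer1 residual of all libraries, it was 0.254 in the remaining 10.

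**Figure D4:**
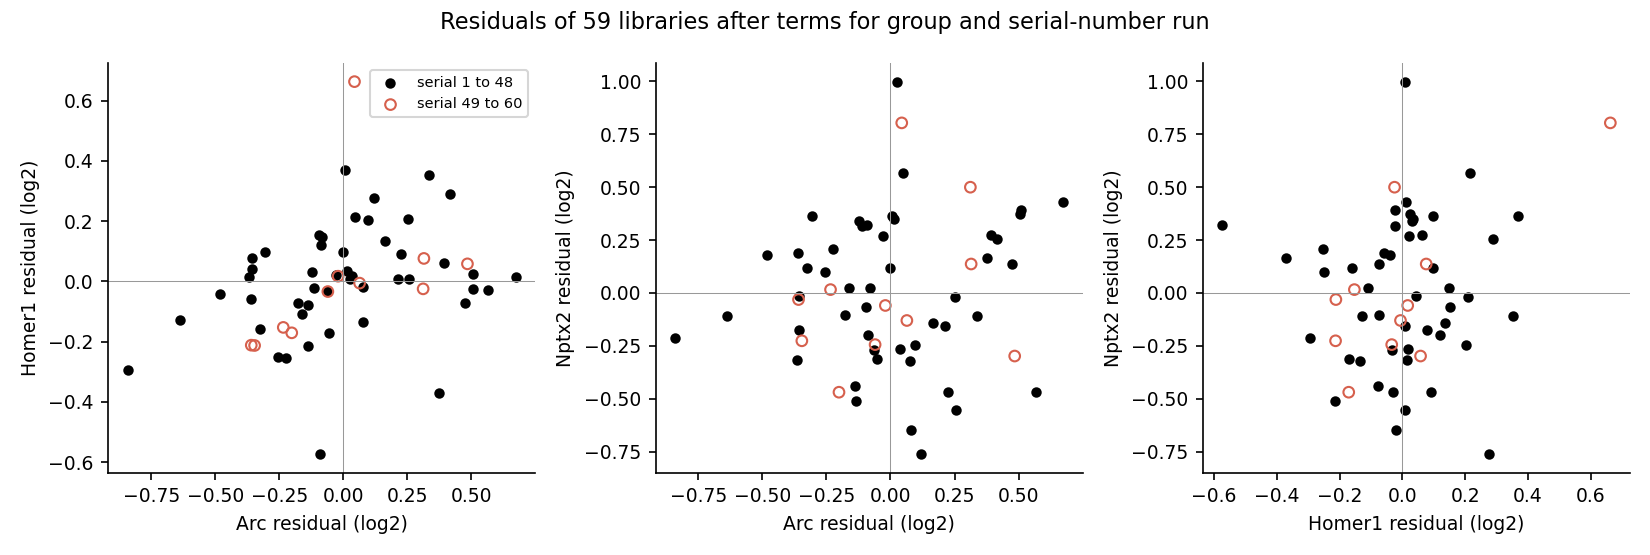
Residuals (log2) of the 3 pairs of genes after terms for group and serial-number run, 1 point per library, filled for serial numbers 1 to 48 and open for 49 to 60. The Arc and Homer1 residuals have r = 0.318, and the open points of Homer1 and Nptx2 have r = 0.729.

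Among other genes of the activity response, those called were mostly genes for transcription factors, with peaks in the dark as for Arc. The gene lists used here and below were chosen with earlier results of these data known. Their counts and medians are therefore descriptions and not independent support. Of 25 listed activity-induced transcription factor genes 9 were tested, and 5 were called with a 24 h peak in the dark and none in the light, against 1.40% and 0.491% of all genes. Their median amplitude was 0.413 (0.0762 over all genes) and their median dark minus light 0.472 (-0.000561 over all). The 5 were Junb, Ier5l, Jun, Fos and Egr1, with peaks from ZT16.3 (Junb) to ZT20.2 (Jun) and amplitudes from 0.27 (Jun) to 0.60 (Fos), all under the 0.90 of Arc. Fos, which encodes a subunit of AP-1, had mean levels of 7.41 ± 0.73 at ZT6 and 8.66 ± 0.60 at ZT18 (SD, n = 10 each). Egr2, which encodes a zinc finger factor of the same response, had an amplitude of 0.58 ± 0.15 (adjusted p = 0.0709 by limma).

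Of 30 listed effector genes besides the 3, 7 were tested and 1 was called, where 1.90% of all genes were called. It was Gadd45b, a stress- and activity-induced gene, whose amplitude was 0.50 ± 0.11 and whose peak fell at ZT14.9 (adjusted p = 0.0118 by limma). Dusp5, which encodes a phosphatase that acts on ERK, had 0.39 ± 0.10 and a peak at ZT16.0 (adjusted p = 0.0656). Plk2, which encodes a kinase of activity-dependent synaptic scaling, had 0.06 ± 0.04 (adjusted p = 0.796). The median amplitude of the 7 was 0.0824 and the median dark minus light 0.0369, beside 0.0762 and -0.000561 over all genes. Among 36 listed upstream regulators 10 were tested, with a median amplitude of 0.0702, under the 0.0762 of all genes. The 1 called was Srf, the gene for serum response factor, at 0.20 ± 0.04 with a peak at ZT22.2 (adjusted p = 0.00839 by limma), beside 0.19 ± 0.05 and ZT22.74 for Homer1. Creb1 had 0.09 ± 0.03 and a peak at ZT20.8 (adjusted p = 0.318).

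None of the tested genes for the proteins that the 3 products act with had a called rhythm. Over all 4273 tested genes 1.90% were called and 486 had an unadjusted p under 0.05 by limma. At that share, 0 calls in lists this short say little about the partners, and most listed partners were not tested. Of 32 listed AMPA receptor and endocytosis partners of Arc 11 were tested, with a median amplitude of 0.0570 and a smallest adjusted p of 0.863 by limma; 0 had an unadjusted p under 0.05. Among them Gria4, a subunit of AMPA receptors, had 0.05 ± 0.03, and Dnm2, a dynamin of endocytosis, 0.08 ± 0.07. Of 26 listed Homer family members and binding partners 7 were tested (median 0.0628, smallest adjusted p 0.783), with Itpr2, an IP3 receptor, at 0.13 ± 0.07 and Plcb1, a phospholipase C, at 0.13 ± 0.10. Of 16 listed genes of the pentraxin family and its partners 5 were tested (median 0.0496, smallest adjusted p 0.863), among them Gria4 again and Ncan, a proteoglycan of perineuronal nets, at 0.06 ± 0.06. In both of these lists 0 genes had an unadjusted p under 0.05.

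**Figure D5:**
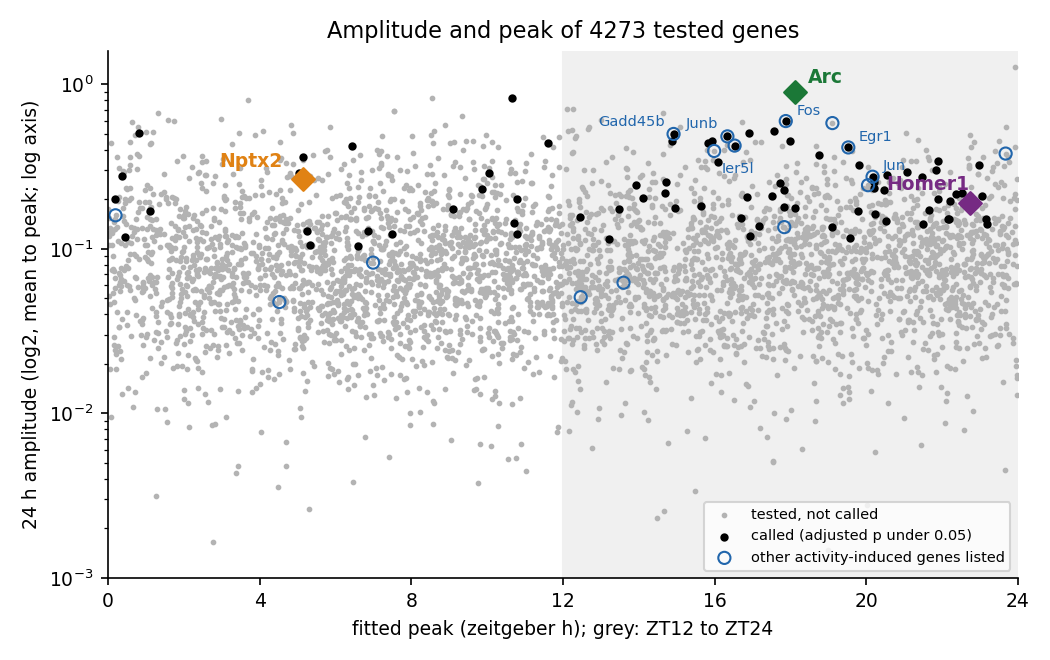
Fitted 24 h amplitude (y axis, log2, log axis) against fitted peak (x axis, zeitgeber hours) of all 4273 tested genes. Black points are the 81 called genes, blue circles the other activity-induced genes listed, and coloured diamonds the 3 genes: Arc lies at 0.90 among dark-peaking activity genes, Homer1 at 0.19 near ZT22.74 and Nptx2, not called, at 0.27 near ZT5.14.

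By the likeness of their 12 group means, the 3 genes had different nearest genes among 3282 with a mean of at least 50 reads. Nearest to Arc were Fos (Pearson's r = 0.946 over 12 group means), Pfkfb3 (0.901), Banp (0.897), Mettl7a1 (0.894) and Rmnd5b (0.886). Of these, Rmnd5b was not called for a 24 h rhythm (adjusted p = 0.268 by limma). Pfkfb3, which encodes a regulator of glycolysis, had an amplitude of 0.21 ± 0.05 and Banp one of 0.45 ± 0.07, with peaks at ZT17.5 and ZT18.0. Nearest to Homer1 were Manf (0.941), Rasl10a (0.899), Znrf1 (0.843), BC002059 (0.843) and Cbr3 (0.829). Of these, BC002059 and Cbr3 were not called for a 24 h rhythm (adjusted p = 0.543 and 0.767 by limma). Manf encodes a secreted protein of the endoplasmic reticulum stress response. It had means of 10.31 ± 0.23 at ZT2, 9.97 ± 0.11 at ZT10 and 10.31 ± 0.17 at ZT18, an amplitude of 0.20 ± 0.03 and a peak at ZT21.9. Rasl10a had 0.34 ± 0.06 and ZT21.9. Nearest to Nptx2 were Zfp941 (0.845), Zfp287 (0.816), Ctsd (0.808), Kcnc2 (0.806), which encodes a potassium channel of fast-spiking neurons, and Tspyl5 (0.792); none of these 5 was called for a 24 h rhythm by limma, and the smallest adjusted p was 0.108. Among the 3 genes r was 0.332 for Arc and Homer1, -0.69 for Arc and Nptx2 and -0.0511 for Homer1 and Nptx2. Over all 3282 compared genes the median r was 0.00327 for Arc, -0.00775 for Homer1 and 0.00406 for Nptx2. Each set of 5 holds the highest of that many correlations over only 12 group means. Such values are high in part by selection, and whether chance could give them was not tested. All r values here are descriptions over groups that share libraries' depth and run.

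Markers of the cell types in the homogenate were tested in the same way. None of 18 tested markers was called for a 24 h rhythm by limma (2 had an unadjusted p under 0.05, the interneuron genes Vip and Calb2). Over all 4273 tested genes 1.90% were called and 486 had an unadjusted p under 0.05. These counts are therefore near those of all genes and are not a test of cell composition. The largest amplitude of the 18 was that of C1ql1, a marker of oligodendrocyte precursors, at 0.37 ± 0.15 (adjusted p = 0.50 by limma). They were 4 of 11 listed for glutamatergic neurons, 7 of 11 for GABAergic neurons, 3 of 7 for astrocytes, 1 of 7 for oligodendrocytes, 1 of 5 for their precursors and 2 of 7 for microglia, and no tested marker was at 0 in all libraries. The summed level of the glutamatergic markers (reads per 1000000 outside the same 6 genes, RPM) ran from 4332 to 6784 RPM at ZT6 and from 4794 to 6620 at ZT18, and that of the GABAergic markers from 761.5 to 1241 and from 875 to 1059. The astrocyte markers ran from 1014 to 2998 at ZT6 and from 1156 to 2850 at ZT18. At ZT14 the GABAergic sum was 748 to 1047 and the astrocyte sum 885.7 to 3130. In a homogenate, fewer cells of a type and less RNA per cell cannot be told apart.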

How the data were processed

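Total RNA libraries of homogenised medial prefrontal cortex were made with a stranded kit, per the labels' protocols. The deposited values are log2 values: each is the log2 of a read count divided by a factor of its library, plus 1. The submitters' processing notes name FastQC, HTSeq and DESeq2 and the build GRCm38. The aligner, versions, strand setting and filters are not given in the sources used here.

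From the steps between low values, whole reads were recovered (100.0% of values under 1000 reads within 0.05 of a whole number) and used for depth, levels per length and the filter on low reads, which kept 4273 of 4484 genes. Of all genes, 4465 had a symbol in GENCODE M21. Groups (time and sex) came from the sample names. The log2 values of all tested genes were fitted with limma 3.58.1 in R 4.3.3 (intensity trend, robust), with Benjamini-Hochberg adjustment over all tested genes, and the procedure was tested on simulated data. Ratios and residuals were tested by permutation in Python 3.11.15 with numpy 2.4.6. No 2 libraries of a group were alike within sampling noise (lowest chi-square per degree of freedom 4.31 over 116 pairs).

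The 3 genes, the gene lists and the markers were chosen with earlier results of these data known, and the test of ratios was added after the values were seen. Named genes were, for each list, up to 6 called genes of smallest p, or the 2 of smallest p where fewer than 2 were called; and, for each of the 3 genes, the 5 whose group means were most like its own, passing over predicted genes. Plk2, Egr2 and the marker Slc17a7 were named besides. Alternatives were other scalings, filters and weights, a replicate block, principal components as covariates, and leaving out libraries. Read counts are not molecules, so depth describes counting error only.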

Additional observations from a re-analysis of the deposited data

Results flagged for a closer look

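At ZT6 the Homer1 level of 1 female library, replicate 5 (serial numbers 49 to 60), was 12.59, while the other 4 females lay between 13.05 and 13.07. Its gap to the nearest of them was 0.958 of the range of the group. In all, 36 groups (3 genes, 6 times, both sexes) were examined for such a library and 1 had one, and chance marks about 1 in 20 groups. Without this library the 24 h amplitude of Homer1 was 0.19 (adjusted p = 0.0327 by limma).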

How the results depend on the processing

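Of 37 results, 25 kept their side of the threshold under each alternative run, and those called kept their direction. Among them were the rhythm, joint, dark minus light and sex tests of Arc and the 3 ratios. Not every result was run under every alternative: the ratios were rerun only in libraries 1 to 48 and with single libraries left out. Among the 25 the level per length of Nptx2 could not change, as its exonic bases and longest transcript are both 2536 bases. That of Arc could hardly change (3057 against 3055 bases). Direction was not compared where a result was called in neither run. With single libraries left out, male minus female 24 h amplitude of Arc ran from -0.07628 to 0.0266. A count was taken as kept where it moved little, which includes the count of called pairs of Arc. The number of called pairs of Arc was 6 to 9: 6 on the scale of all reads in the table, and 8 with principal components, in libraries 1 to 48 or with any 1 of 9 ZT2 or ZT6 libraries left out. The amplitude of Homer1 was 0.223 on the scale of all reads in the table and 0.1725 in libraries 1 to 48, and was not called in either. With single libraries left out it was 0.1717 to 0.2025, and the call was lost only without ZT10 male replicate 5. On the scale of all reads 3 genes were called in place of 81, and Nptx2 had 0 called pairs. In libraries 1 to 48, 50 genes were called.

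With the first 2 principal components as covariates 499 genes were called, and with them Nptx2 in the 24 h rhythm (0.275) and in females (0.3257), Homer1 in females (0.1867), Homer1 and Nptx2 in the test of any difference (largest difference 0.406 and 0.709) and Nptx2 in dark minus light (-0.3927). Homer1 then had 5 called pairs and Nptx2 3. For Nptx2 the joint test of any difference was called in libraries 1 to 48 (largest difference 0.9525). With single libraries left out the largest difference ranged from 0.7473 to 0.9197 and the joint test was called without ZT2 male 5, ZT6 female 2, ZT10 male 3, ZT14 male 5 or ZT14 female 5. Dark minus light of Nptx2 ranged from -0.4141 to -0.3308 and was called without ZT10 male 3. The cause was not tested.

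With the replicate block (the 5 serial-number runs) the test of any difference called Homer1 (0.3998, adjusted p = 0.0156 by limma) and Nptx2 (0.8444, adjusted p = 0.0174), and dark minus light called Nptx2 (-0.3897, adjusted p = 0.0359). Same-numbered libraries of different groups did not deviate together in general: the mean correlation was 0.107, and in 2 of 66 pairs of groups each correlation exceeded 0.1. Within the libraries 49 to 60 all 55 correlations exceeded 0.1 (mean 0.408, from 0.183 to 0.586), against means of 0.0207 to 0.0679 within the other runs.

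For Arc and Homer1, r was 0.288 in a fit to libraries 1 to 48 alone and 0.28 without the 2 farthest libraries. The level of Homer1 per length was 257.5 with its longest transcript. At 82 to 467 reads, Nptx2 has the widest counting error of the 3 genes.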
